A study of Mus musculus with 12 samples.

Results

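Corticosteroid hormones act through a pair of nuclear receptors, and 9 of the 55401 genes in the tables were examined as a read of that pathway in the mouse cerebellum. The genes were chosen by name: the receptors Nr3c1 and Nr3c2 and the targets Fkbp5, Sgk1, Tsc22d3, Pdk4, Zbtb16, Sult1a1 and Errfi1. Each name matched 1 Ensembl identifier, and all 9 genes passed the filter on low counts that left 19378 genes for testing. RNA came from the cerebella of 12 mice, 1 library per mouse, in 3 groups of 4. The WT DMSO group (wild-type mice given the solvent dimethyl sulfoxide, DMSO) held libraries 413, 425, 426 and 431. The Het DMSO group held 409, 411, 420 and 429, from heterozygous Atxn1154Q/2Q knock-in mice (gene name followed by its alleles) given DMSO, which carry 1 Atxn1 allele with an expanded glutamine tract and serve as a model of the ataxia SCA1. The Het Hit 2 group held 410, 421, 422 and 430, from knock-in mice of the same genotype given the compound Hit 2 at 25 mg/ml in DMSO.

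Every group shared the injections. Per the labels' protocols, treatment began at 18 weeks of age and consisted of 5 daily intraperitoneal injections, 2 days of rest and 5 more injections. The solvent stayed below 4 ml/kg, injections fell between 8 and 9 in the morning, and tissue was taken after 3 in the afternoon of the last injection day, at 20 weeks. Anaesthesia with urethane and perfusion with buffered saline preceded removal of the tissue in all mice. No uninjected mice were analysed here, so the level that daily handling and injection added to all 12 animals cannot be told apart from the resting level. What can be compared is whether the read differed between the 3 groups and between mice within a group.

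Glucocorticoids such as corticosterone cross the cell membrane and bind the glucocorticoid receptor, which is held in the cytoplasm by heat shock proteins and their partners. The bound receptor enters the nucleus and regulates genes, many of them through a short palindromic DNA motif, the glucocorticoid response element. In the brain these genes are known to respond to stress and to the daily rhythm of the adrenal hormone, and glia, vessels and neurons all take part.

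Reads assigned to genes ranged from 15855751 to 45265719 per library, and levels are given as CPM (reads of a gene per 1000000 gene reads, on library sizes scaled with edgeR's TMM factors). The counts pool both Atxn1 alleles and do not check the genotype. Summed over 8 Purkinje cell markers, 11 libraries held 2987 to 7006 CPM and library 411 of the Het DMSO group 478 CPM, and over 6 granule cell markers the values were 2113 to 4059 and 183 CPM. Library 409, also of the Het DMSO group, had 0.0795% of its gene reads on the mitochondrial genome, against 1.85% to 2.81% in the other 11. Libraries 409 and 411 stood apart from the rest, so the counts of calls and several values are also given without 409 and 411. Those fits left 420 and 429 in the Het DMSO group. Library 410 of the Het Hit 2 group lay next to 411 on 6 marker lists, though less far out: it was the eleventh of 12 for Purkinje (2987 CPM), granule cell (2113 CPM) and astroglia markers (944 CPM) and the second for oligodendrocyte (5478 CPM), microglia (129 CPM) and endothelial and pericyte markers (379 CPM). Xist, the RNA of the inactive X chromosome, stood at 1393 to 1464 CPM in WT libraries 425 and 426 and at no more than 0.290 CPM in the other 10. The labels give no sex, and the comparisons with WT DMSO were repeated without this pair, which left 413 and 431 in the WT DMSO group.

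The glucocorticoid receptor gene Nr3c1 (ENSMUSG00000024431, chromosome 18) was evenly expressed in most mice. It stood at 116, 131, 121 and 111 CPM in WT DMSO libraries 413, 425, 426 and 431. The Het DMSO libraries 409, 411, 420 and 429 held 87.7, 85.9, 139 and 122 CPM, and the Het Hit 2 libraries 410, 421, 422 and 430 held 120, 121, 128 and 97.0 CPM. The lowest values belonged to 409 and 411, the libraries that stood apart, and all 3 groups overlapped. The mean was 120 ± 8.53 CPM (SD, n = 4) in WT DMSO, 109 ± 26.3 in Het DMSO and 117 ± 13.6 in Het Hit 2. In Het DMSO against WT DMSO the log2 fold change was -0.14, and without 409 and 411 it was 0.11. Leaving out single libraries moved it between -0.28 (without 420) and -0.03 (without 411).

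Nr3c2 (ENSMUSG00000031618, chromosome 8) encodes the mineralocorticoid receptor, which binds corticosterone with higher affinity than the glucocorticoid receptor does. Its level varied least of the 9 genes. In WT DMSO the libraries, in the order given above, held 68.8, 68.7, 71.4 and 69.2 CPM, in Het DMSO 56.3, 70.6, 63.9 and 57.4 CPM and in Het Hit 2 71.5, 67.1, 65.3 and 57.8 CPM. The highest level was 1.27 times the lowest. The WT values lay close together, library 411 fell among them and 410 just above, and the other 6 libraries of the Het groups lay below all 4. The mean of 62.0 ± 6.60 CPM (SD, n = 4) in Het DMSO against 69.5 ± 1.26 CPM in WT DMSO (65.4 ± 5.71 in Het Hit 2) gave a log2 fold change of -0.16 (SE 0.105, edgeR unadjusted p 0.143, adjusted p 0.619). This was the smallest unadjusted p among the 9 genes in that comparison. It was -0.21 without 409 and 411 (edgeR unadjusted p 0.0325, adjusted p 0.777) and -0.20 with limma's quality weight per library (unadjusted p 0.0114, adjusted p 0.311). Adjusted over all genes tested, the difference in receptor mRNA did not pass the threshold of 0.05 in any fit.

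Fkbp5 (ENSMUSG00000024222, chromosome 17) encodes FKBP51, a co-chaperone that lowers the hormone affinity of the glucocorticoid receptor and is itself induced by it, closing a feedback loop. Its level differed 8.52-fold between the highest and the lowest mouse, the widest range of the 9 genes. In WT DMSO the 4 libraries held 10.95, 12.8, 18.1 and 37.9 CPM, the last being 431. In Het DMSO they held 16.0, 35.3, 12.1 and 22.4 CPM, and in Het Hit 2 21.7, 25.4, 10.3 and 87.8 CPM, the last being 430. The treated group thus contained both the lowest mouse, 422, and the highest, 430. Group means were 19.9 ± 12.4 CPM (SD, n = 4) in WT DMSO, 21.4 ± 10.1 in Het DMSO and 36.3 ± 34.9 in Het Hit 2. The log2 fold change of Het Hit 2 against Het DMSO was 0.76 (95% interval -0.57 to 2.09, adjusted p 0.898 in edgeR, two-sided p 0.657 by exact permutation). Without library 430 it was -0.18, so the sign rested on 1 mouse. For Het Hit 2 against WT DMSO it was 0.86 (95% interval -0.47 to 2.19, edgeR adjusted p 1.00), -0.08 without 430 and 1.37 without 431 (edgeR unadjusted p 0.0550, adjusted p 1.00). These intervals leave room for changes of up to 4.25-fold against Het DMSO and 4.58-fold against WT DMSO.

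Zbtb16 (ENSMUSG00000066687, chromosome 9), which encodes the zinc finger repressor PLZF, followed the same libraries. It stood at 23.7, 33.7, 35.2 and 98.3 CPM in WT DMSO, at 33.5, 52.0, 29.7 and 48.3 CPM in Het DMSO and at 35.4, 53.8, 20.9 and 175 CPM in Het Hit 2. Libraries 430 and 431 were again the highest and 422 the lowest, over an 8.35-fold range. Group means were 47.7 ± 34.1 CPM (SD, n = 4) in WT DMSO, 40.9 ± 10.9 in Het DMSO and 71.3 ± 70.4 in Het Hit 2. The log2 fold change of Het Hit 2 against Het DMSO was 0.80 (95% interval -0.52 to 2.12, edgeR adjusted p 0.898) and -0.17 without 430. For Het Hit 2 against WT DMSO it was 0.58, -0.39 without 430 and 1.20 without 431.

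Tsc22d3 (ENSMUSG00000031431, chromosome X) encodes GILZ, the glucocorticoid-induced leucine zipper, which dampens inflammatory signalling. Its highest levels were 160 CPM in 431 and 134 CPM in 430. The other WT DMSO libraries held 69.8, 69.4 and 88.5 CPM, the Het DMSO libraries 82.4, 96.9, 54.4 and 80.7 CPM and the other Het Hit 2 libraries 72.2, 80.4 and 53.1 CPM. Libraries 430 and 431 thus lay above the other 10 mice, 1 in the Het Hit 2 and 1 in the WT DMSO group. Means were 96.9 ± 43.0 CPM (SD, n = 4) in WT DMSO, 78.6 ± 17.7 in Het DMSO and 85.0 ± 34.8 in Het Hit 2, and the largest difference was that of Het DMSO against WT DMSO, at -0.30 on the log2 scale (edgeR adjusted p 0.711), which was 0.02 without 431, -0.52 without 409 and 411 and -0.55 without 425 and 426.

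Sgk1 (ENSMUSG00000019970, chromosome 10) encodes a serum- and glucocorticoid-induced kinase that regulates ion channels and transporters. Its promoter is shown because it holds a full match to the response element motif searched. Of 32851 RefSeq promoter windows in the GRCm38.p6 table (each 250 bases before to 50 after a gene's start), 3 contained AGAACA, any 3 bases and TGTTCT in a row (0.00913%; both strands were searched). One of the 3 was a window of Sgk1, which has 6 annotated starts. The 250 bases before that start, chr10:21993640-21993889 on the plus strand, are given with the element in capitals, which begins 189 bases before the start.
Sgk1: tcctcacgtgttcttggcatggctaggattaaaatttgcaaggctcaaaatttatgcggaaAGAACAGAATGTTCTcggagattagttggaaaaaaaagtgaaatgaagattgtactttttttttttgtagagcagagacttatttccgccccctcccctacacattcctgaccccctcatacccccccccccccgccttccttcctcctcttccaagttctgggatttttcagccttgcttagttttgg
Windows were at hand for 7 of the 9 genes, 15 in all, and no other of them held this motif or the looser form that keeps only GNACA, any 3 bases and TGTNC (N is any base). A match is a description of letters in a window and not a site, and these genes can be regulated from elements elsewhere.

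Levels of Sgk1 spread far less than those of Fkbp5. They were 101, 87.7, 78.2 and 99.5 CPM in WT DMSO, 108, 96.8, 75.1 and 115 CPM in Het DMSO and 99.0, 77.9, 79.4 and 119 CPM in Het Hit 2. Library 430 was the highest of the 12, followed by 429 and 409, and all 3 groups overlapped. Means were 91.5 ± 10.6 CPM (SD, n = 4) in WT DMSO, 98.7 ± 17.5 in Het DMSO and 93.9 ± 19.5 in Het Hit 2, and the log2 fold changes of the 3 comparisons lay between -0.07 and 0.11.

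Pdk4 (ENSMUSG00000019577, chromosome 6), a kinase that shuts off pyruvate dehydrogenase and saves glucose, was among the weakest of the genes, at 87 to 310 reads per library. It stood at 6.92, 7.30, 6.15 and 10.6 CPM in WT DMSO, at 3.97, 10.7, 5.41 and 9.55 CPM in Het DMSO and at 10.7, 5.54, 3.98 and 10.4 CPM in Het Hit 2. High values occurred in each group (431, 411, 429, 410 and 430), and the 3 means of 7.73 ± 1.95, 7.41 ± 3.23 and 7.66 ± 3.41 CPM (SD, n = 4 each) were nearly equal. Library 410 was the highest and 411 next, the pair with low neuron and high oligodendrocyte markers, whose part in these levels was not tested. The log2 fold change of Het Hit 2 against Het DMSO was 0.046, and -0.16 without 410.

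Sult1a1 (ENSMUSG00000030711, chromosome 7), a sulfotransferase of phenols and steroid-like compounds, rested on 58 to 216 reads per library. Levels were 2.43, 3.75, 4.71 and 9.67 CPM in WT DMSO, 1.45, 6.66, 3.61 and 4.92 CPM in Het DMSO and 7.70, 5.24, 2.28 and 6.99 CPM in Het Hit 2. Library 431 was the highest, and 410 and 430 followed. Without 410 the log2 fold change of Het Hit 2 against Het DMSO was 0.22, and that against WT DMSO turned from 0.11 to -0.10. The log2 fold change of Het Hit 2 against Het DMSO was 0.12 without 409 and 0.72 without 411. The gene overlaps Sgf29 on the opposite strand in the GENCODE M21 annotation, and with unstranded counts the log2 fold change of Het Hit 2 against Het DMSO was -0.0025 in place of 0.42. The strand-specific means were 5.14 ± 3.16 CPM (SD, n = 4) in WT DMSO, 4.16 ± 2.20 in Het DMSO and 5.55 ± 2.42 in Het Hit 2.

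Errfi1 (ENSMUSG00000028967, chromosome 4) encodes MIG6, a feedback inhibitor of the epidermal growth factor receptor. It held 38.8, 34.4, 31.5 and 40.1 CPM in WT DMSO, 29.7, 29.5, 34.1 and 33.9 CPM in Het DMSO and 32.0, 28.4, 33.8 and 46.7 CPM in Het Hit 2. Libraries 430 and 431 were once more the 2 highest, within a range of 1.64-fold. Het DMSO averaged 31.8 ± 2.55 CPM (SD, n = 4) against 36.2 ± 3.95 in WT DMSO and 35.2 ± 7.95 in Het Hit 2. The Het DMSO group differed from WT DMSO by -0.19 on the log2 scale (SE 0.154, adjusted p 0.649 in edgeR, two-sided p 0.114 by exact permutation). The lowest of its values were those of 409 and 411, and without these libraries the difference was -0.10 (edgeR unadjusted p 0.575), while without 425 and 426 it was -0.31.

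**Figure D1:**
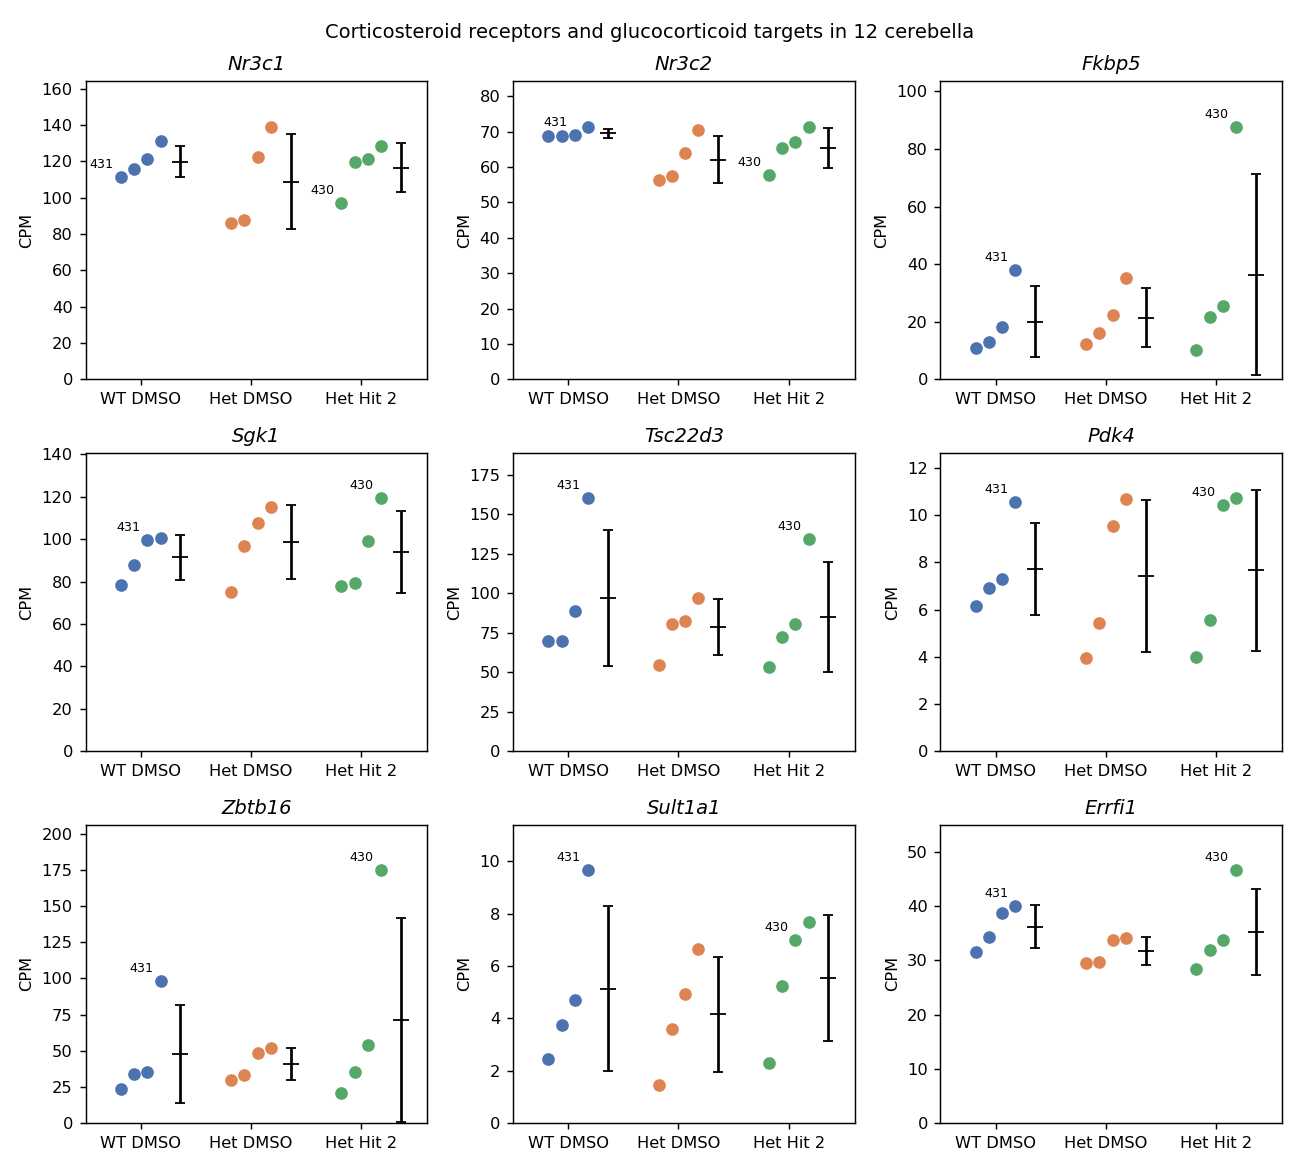
CPM of the 9 genes in each of the 12 libraries (points, 1 per mouse), with the mean and SD of each group of 4 beside them (black); each vertical axis starts at 0. Libraries 430 and 431 are labelled and are the 2 highest for Fkbp5, Tsc22d3, Zbtb16 and Errfi1, while the receptors Nr3c1 and Nr3c2 overlap between groups.

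Per kilobase of exon in the GENCODE M21 annotation, which is not that of the deposited counts, the median levels over 12 libraries ran from 20.0 CPM per kb for Sgk1 through 18.6 for Tsc22d3, 15.7 for Nr3c1, 10.5 for Nr3c2, 9.45 for Errfi1, 6.69 for Zbtb16, 3.20 for Sult1a1 and 2.10 for Fkbp5 to 2.03 for Pdk4. Neighbours in this order had overlapping ranges with 1 exception. Every library's Nr3c1 level (11.2 to 18.1 CPM per kb) lay above every library's Nr3c2 level (8.69 to 11.04 CPM per kb), so the glucocorticoid receptor mRNA was the more abundant of the receptor mRNAs in these cerebella.

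For none of the 9 genes did a difference between groups pass the test. In the quasi-likelihood test of edgeR, 0 of 9 passed an adjusted p of 0.05 in Het DMSO against WT DMSO, where 0.00516% of all genes tested did. The count was 0 of 9 in Het Hit 2 against Het DMSO (0.0% of all genes) and 0 of 9 in Het Hit 2 against WT DMSO (0.00516%). A test of any difference among the 3 groups also called 0 of 9, against 0.00516% of all genes, where 3.11% of all genes had an unadjusted p under 0.05 and 0 of 9 did, with Fkbp5 giving the smallest unadjusted p at 0.317 (edgeR adjusted p 0.977). At an unadjusted p of 0.05 edgeR placed 0 of 9 past the threshold in each comparison, where 7.11%, 1.55% and 1.71% of all genes passed in the order above, and DESeq2 also placed 0. Groups that did not overlap were seen for 0 of the 9 genes in each comparison, against 4.39%, 1.03% and 6.32% of all genes. Without 409 and 411, edgeR again called 0 of 9 in each comparison, where it called 18, 0 and 90 of all genes in the order above. Nr3c2 in Het DMSO against WT DMSO was then the 1 gene of the 9 with an unadjusted p under 0.05. Of all genes tested, 1172, 748 and 1910 had one in the same order. Without 425 and 426 edgeR called 0 of 9 and 0 of all genes in each comparison.

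The directions of the estimates changed when single libraries were left out. In Het DMSO against WT DMSO 7 of the 9 estimates were below 0, with a median of -0.16 beside 0.05 over all genes; without library 431 only 3 were below 0 and the median was 0.10. With limma's quality weights 3 were also below 0, and without 425 and 426, which left 413 and 431 in WT DMSO, all 9 were. In Het Hit 2 against Het DMSO 8 were above 0, with a median of 0.11 beside -0.04 over all genes; without library 430 only Nr3c1, Nr3c2 and Sult1a1, 3 of 9, were above 0 and the median was -0.15, and with limma's weights 5 were above 0. These comparisons share the Het DMSO libraries. In Het Hit 2 against WT DMSO 4 were above 0 and 5 below, with a median of -0.02 beside 0.02. Without 430 that count above 0 was 1, and without 431 it was 7.

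**Figure D2:**
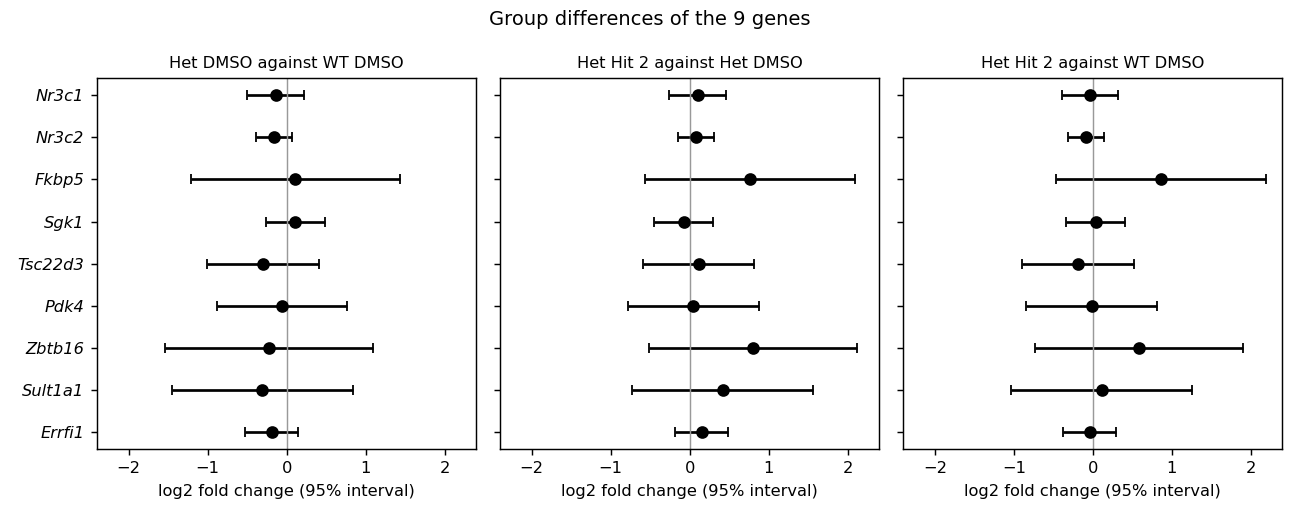
Log2 fold changes of the 9 genes (points) with 95% intervals from the edgeR fit of all 12 libraries, in the 3 comparisons. All 27 intervals include 0; those of Fkbp5 and Zbtb16 are the widest, for example -0.57 to 2.09 for Fkbp5 in Het Hit 2 against Het DMSO.

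Fkbp5 and Zbtb16 varied widely between mice of the same group. The within-group SD of log2 CPM was 0.95 for Fkbp5 and 0.94 for Zbtb16, against a median of 0.37 over all genes tested, at the 91.1 and 90.7 percentiles of all genes. Without the libraries that stood apart, 409 and 411, the SD was 1.01 for Fkbp5 and 1.05 for Zbtb16 and the median over all genes 0.20, which put both above 97.3% and 97.4% of genes. Sult1a1 (94.5%), Pdk4 (88.3%) and Tsc22d3 (88.0%) came next among these 10 libraries. The other genes lay lower, with Sgk1 at 64.5%, Errfi1 at 55.9%, Nr3c1 at 36.4% and Nr3c2 at 18.3%. Over all 12 libraries the percentiles were 88.0 for Sult1a1, 74.7 for Pdk4, 67.0 for Tsc22d3, 27.7 for Sgk1, 18.9 for Errfi1, 23.9 for Nr3c1 and 3.43 for Nr3c2, whose spread was thus among the smallest. Group membership accounted for 8.38% of the variance of Fkbp5 and 4.05% of that of Zbtb16 over 12 libraries, beside a median of 14.8% over all genes. The share was 32.5% for Nr3c2, above that median, 15.3% for Errfi1, near it, and 1.36% to 11.04% for the other 5 genes. Counting error is larger for weakly expressed genes, so a percentile among all genes is a description of rank only.

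**Figure D3:**
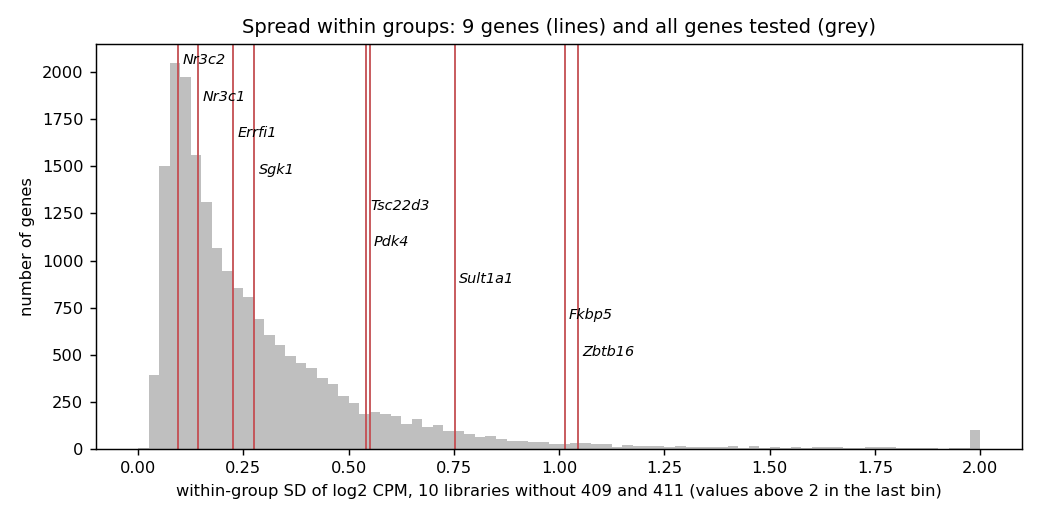
Within-group SD of log2 CPM over 10 libraries without 409 and 411, for all genes tested (grey histogram, number of genes) and for the 9 genes (red lines). Fkbp5 (1.01) and Zbtb16 (1.05) lie in the upper tail and Nr3c2 (0.10) and Nr3c1 (0.14) near the peak; SDs above 2 are in the last bin.

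Libraries 430 and 431 ranked high for several targets at once. The pair was picked for description after their values were seen, and no test was made of them. Both were the 2 highest of 12 for 4 of the 7 targets, Fkbp5, Tsc22d3, Zbtb16 and Errfi1, where 3.06% of all genes tested had this pair on top. Library 430 was among the 2 highest for 5 of the 7 targets (12.4% of all genes) and 431 for 5 of 7 (19.1% of all genes). At the low end, 422 of the Het Hit 2 group was the lowest of its group in 5 of the 7 (23.3% of all genes) and 420 of the Het DMSO group in 4 of the 7 (17.8% of all genes). The receptors did not share this order: Nr3c1 in 430 was the lowest of its group, at 97.0 CPM, and in 431 the lowest of its group, at 111 CPM.

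The gene with the pattern most like that of Fkbp5 was Zbtb16. Likeness was the root mean square difference of log2 CPM, each gene centred on its mean over the 12 libraries, and 13431 genes with a mean of at least 1 CPM were searched. The difference between Fkbp5 and Zbtb16 was 0.23 on the log2 scale, where Fkbp5 itself departed from a flat line by 0.86. Second was Hif3a at 0.28, a hypoxia-inducible factor subunit that is on the list of other glucocorticoid targets. Zbtb16 in turn had Fkbp5 (0.23) and Hif3a (0.24) as its nearest genes. For Errfi1 the nearest was Nfkbia (0.12), the inhibitor of NF-kappa-B and also on that list, then Rrp15 (0.13). Nearest to the other genes were Spsb1 and Ramp2 for Tsc22d3 (0.23 and 0.24), Nek11 and Apod for Pdk4 (0.23 and 0.24), Zfp97 and Zfp934 for Sult1a1 (0.35 and 0.36), Tacc3 and Polr1a for Sgk1 (0.12 and 0.15), Uhrf2 and Prkx for Nr3c1 (0.08 for both) and Cttnbp2 and Apbb2 for Nr3c2 (0.07 for both). For genes that barely vary, such as the receptors, Errfi1 and Sgk1, many flat genes are near. The departure from a flat line was 0.12 for Nr3c2, 0.20 for Errfi1, 0.21 for Nr3c1 and 0.22 for Sgk1.

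A second list of 22 glucocorticoid targets was read in the same way. The list was chosen with earlier results of these data known, so it is not an independent check of the 9 genes. In none of the 3 comparisons did a gene of the list pass the adjusted threshold in edgeR (0 of 22 each, beside 0.00516%, 0.0% and 0.00516% of all genes), and 2, 0 and 1 of the 22 had an unadjusted p under 0.05 in the order above (Mt1 and Rhob in the first, and Tgm2, a transglutaminase named here after its value was seen, in the last). Among all genes 7.11%, 1.55% and 1.71% did, so these counts are near the background. In the same order the list's median log2 fold changes were -0.09, 0.21 and 0.15, beside 0.05, -0.04 and 0.02 over all genes. Without library 430, the estimates above 0 went from 17 to 8 of 22 in Het Hit 2 against Het DMSO, with a median of -0.07, and from 15 to 4 of 22 in the comparison of Het Hit 2 with WT DMSO, with a median of -0.24. Without 425 and 426 the latter count was 9. The median of Het DMSO against WT DMSO was 0.0095 without 431, -0.30 without 429 and -0.31 without 425 and 426. With limma's quality weights the median of Het Hit 2 against Het DMSO was 0.073, and 14 of 22 estimates were above 0. Library 430 was among the 2 highest of 12 for 20 of the 22 genes, against 12.4% of all genes, and the highest for 11 of them, against 4.45%. Library 431 was among the 2 highest for 10 of the 22, against 19.1% of all genes. The pair held both top places for 9 of the 22: Klf9, Cdkn1a, Cebpd, Mt1, Mt2, Angptl4, Hif3a, Map3k6 and Bcl6, of which all but Mt1 and Mt2 are named for these ranks after their values were seen. Library 422 was the lowest of its group for 12 of the 22, against 23.3% of all genes.

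Hif3a, Cdkn1a and Map3k6 show the size of these differences, and were singled out after their values were seen. Hif3a stood at 49.9 CPM in 430 and 41.7 CPM in 431 and at 9.75 to 25.8 CPM in the other 10 libraries. Cdkn1a, the cell cycle inhibitor p21, stood at 56.4 CPM in 430 and 24.3 CPM in 431 and at 8.23 to 17.1 CPM elsewhere. Map3k6, a kinase upstream of stress-activated MAP kinases, reached 23.4 CPM in 430 and 15.1 CPM in 431, against 3.84 to 9.00 CPM elsewhere. The values in 430 and 431 thus lay outside the range of the other 10 mice for these 3 genes, as they did for Fkbp5, Zbtb16 and Tsc22d3. Per1, a clock gene with known glucocorticoid induction and also named after its values were seen, was highest in 409, at 269 CPM, with 430 next at 240 CPM and 431 at 198 CPM.

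**Figure D4:**
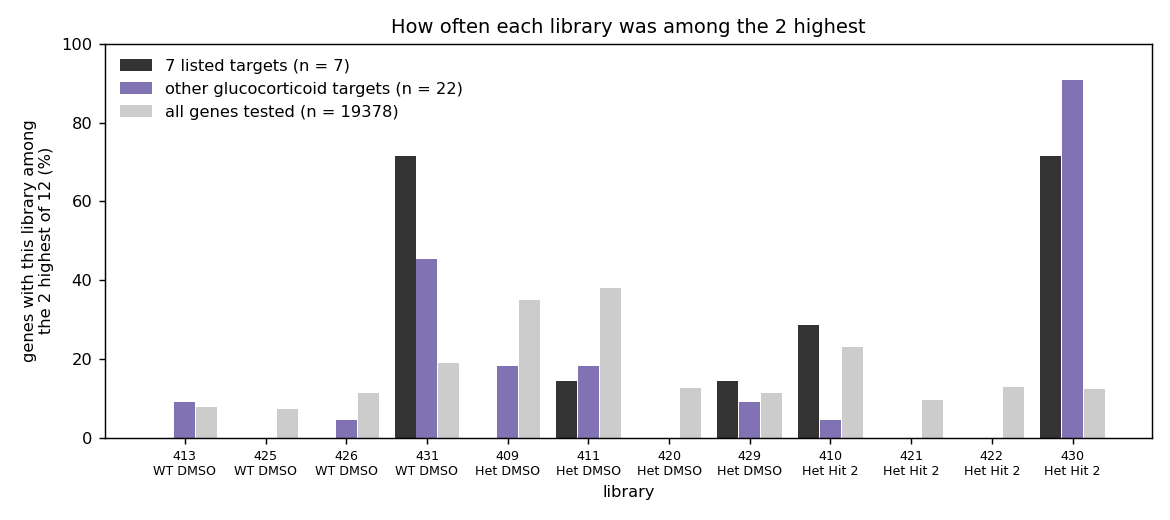
Share of genes for which a library was among the 2 highest of 12 (vertical axis, percent), for the 7 targets, the 22 other targets and all genes tested, by library. Library 430 reaches 90.9% of the 22 other targets and 71.4% of the 7, and 431 reaches 45.5% and 71.4%, while 425, 420, 421 and 422 are at 0 for both lists.

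**Figure D5:**
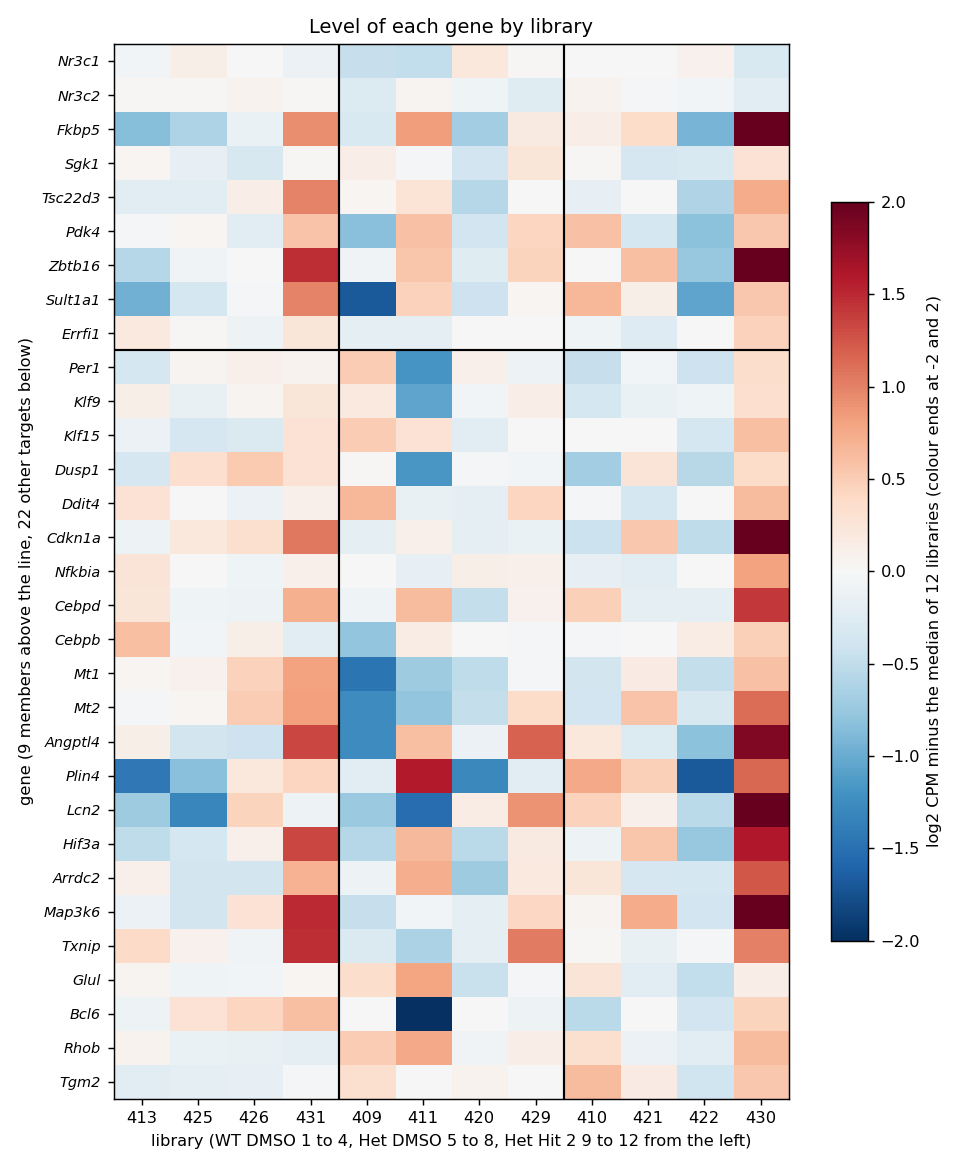
Log2 CPM minus the median of the 12 libraries for the 9 genes (above the line) and the 22 other targets (below), with libraries in group order; colours end at -2 and 2. Column 430 is above the median for every target shown and 431 for most, and 411 is low for Per1, Klf9, Dusp1, Lcn2 and Bcl6 (named after their values were seen).

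The metallothionein genes Mt1 and Mt2, whose proteins bind zinc and copper, had, with Rhob, a small GTPase, the smallest unadjusted p-values of this list in Het DMSO against WT DMSO, and Mt1 and Mt2 also in Het Hit 2 against Het DMSO. Mt1 was 180 ± 45.6 CPM (SD, n = 4) in WT DMSO, 90.9 ± 34.3 in Het DMSO and 142 ± 49.6 in Het Hit 2. Het DMSO differed from WT DMSO by -0.98 on the log2 scale (SE 0.310, edgeR unadjusted p 0.00818, adjusted p 0.616), and Het Hit 2 from Het DMSO by 0.64 (adjusted p 0.898). Library 409 was the lowest at 50.01 CPM, 411 next at 84.1 CPM. Without 409 and 411 these Mt1 differences were -0.65 and 0.30, and without 430 the second was 0.39. Mt2 gave -0.79 and 0.80 in the same comparisons (edgeR adjusted p 0.616 and 0.898), and -0.38 and 0.37 without 409 and 411. Leaving out single libraries moved these Mt2 values between -1.19 (without 429) and -0.60 (without 409), and between 0.43 (without 430) and 1.19 (without 429). Astroglia and Purkinje markers moved with the genotype. The astroglia markers summed to 1374 to 1459 CPM in the 4 WT DMSO libraries, 592 to 1242 CPM in Het DMSO and 944 to 1248 CPM in Het Hit 2. The Purkinje markers summed to 6739 to 7006, 478 to 6093 and 2987 to 5907 CPM, so the WT libraries were the highest 4 of 12 on both lists, with no marker of either at 0. The other marker lists did not separate the WT libraries from the rest, and granule cell markers were highest in 409, at 4059 CPM. The part of cell markers in these differences, or in any other comparison with WT DMSO given here, was not tested. Rhob was higher in Het DMSO, 143 ± 36.9 against 103 ± 8.67 CPM (SD, n = 4), with a log2 fold change of 0.47 (edgeR unadjusted p 0.0498, adjusted p 0.616), and its high values in that group were 157 CPM in 409 and 188 CPM in 411. Without these libraries the difference was 0.12.

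Among the windows of 19 of these 22 genes, 3 held the looser motif (GNACA, any 3 bases, TGTNC; both strands searched; every match of the full motif also matches it), which occurred in 0.475% of all windows. They belonged to Map3k6, Mt1 and Txnip, an arrestin-like protein that binds thioredoxin, and are all the matches in the 22 windows of this list. Map3k6 and Mt1 had 430 and 431 in both top places, and Txnip did not. Klf9, Cdkn1a, Cebpd, Mt2, Angptl4, Hif3a and Bcl6 also had the pair on top, and no match was found for them in the windows at hand. The 250 bases before each start are chr4:133240568-133240817, chr8:94178839-94179088 and chr3:96557707-96557956, all on the plus strand of GRCm38.p6 and from RefSeq, with the match in capitals.
Map3k6: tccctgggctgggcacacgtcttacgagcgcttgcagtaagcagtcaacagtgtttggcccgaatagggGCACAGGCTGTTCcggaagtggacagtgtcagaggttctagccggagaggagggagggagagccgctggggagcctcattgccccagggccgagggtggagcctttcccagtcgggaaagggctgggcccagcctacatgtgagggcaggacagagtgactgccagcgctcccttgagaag
Mt1: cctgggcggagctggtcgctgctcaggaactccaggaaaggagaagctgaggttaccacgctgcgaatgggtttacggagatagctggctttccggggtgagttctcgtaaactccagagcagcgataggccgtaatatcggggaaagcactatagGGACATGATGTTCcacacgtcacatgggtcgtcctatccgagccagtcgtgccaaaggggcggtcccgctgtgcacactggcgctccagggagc
Txnip: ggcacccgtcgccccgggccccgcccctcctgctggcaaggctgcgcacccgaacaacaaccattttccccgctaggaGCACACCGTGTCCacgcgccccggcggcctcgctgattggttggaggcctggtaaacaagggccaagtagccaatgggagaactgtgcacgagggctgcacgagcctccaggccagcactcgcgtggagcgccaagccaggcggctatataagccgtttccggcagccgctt
Txnip, named for its motif match after its values were seen, was highest in 431, at 65.8 CPM, followed by 429 at 48.4 CPM and 430 at 47.5 CPM. The other 9 libraries held 15.1 to 30.8 CPM.

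The machinery around the receptor was examined through 14 genes for chaperones, coregulators and the enzymes that supply or remove active hormone, of which 13 passed the filter. In none of the comparisons did 1 of the 13 pass the adjusted threshold or an unadjusted p of 0.05 in edgeR, beside 0.00516%, 0.0% and 0.00516% of all genes adjusted and 7.11%, 1.55% and 1.71% unadjusted. Counts of 0 of 13 are near these shares. The medians were -0.02, -0.02 and -0.02 in the 3 comparisons, beside 0.05, -0.04 and 0.02 over all genes. Hsd11b1 and Hsd11b2 were named after their values were seen. Hsd11b1, the enzyme that regenerates active corticosterone in cells, held 19.1 to 28.9 CPM in 11 libraries and 8.08 CPM in 411. Hsd11b2, which inactivates the hormone, had 0 to 3 reads per library and was not tested. Fkbp4, the paralogue of Fkbp5 that favours transport of the receptor, averaged 144 ± 15.1 CPM in WT DMSO (SD, n = 4), 169 ± 59.9 in Het DMSO and 137 ± 9.49 in Het Hit 2, with 259 CPM in library 409, and without 409 and 411 its difference between Het DMSO and WT DMSO went from 0.24 to 0.00065. The coregulator genes Ncoa1 and Ncor1 gave, in Het DMSO against WT DMSO, log2 fold changes of -0.24 and -0.28 (edgeR adjusted p 0.618 and 0.622), and both were lowest in 409 and 411. Without 409 and 411 they were -0.0081 and 0.025. Leaving out single libraries gave -0.35 (without 420) to -0.13 (without 409) for Ncoa1 and -0.42 (without 420) to -0.13 (without 411) for Ncor1. Library 430 was among the 2 highest for 0 of the 13 genes, and so was 431.

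Markers of the other cell types were measured beside these ranks. Libraries 430 and 431 held 20703769 and 22138288 gene reads. Summed over 8 endothelial and pericyte markers, 430 held 254 CPM and 431 247 CPM, within 233 to 386 CPM over all 12 libraries, and no marker of this list was at 0. The 8 oligodendrocyte markers summed to 2095 and 1778 CPM (1277 to 6558 CPM in all) and the 6 microglia markers to 78.4 and 63.9 CPM, the latter the lowest of the 12 (highest 178 CPM). The 6 astroglia markers summed to 1116 and 1435 CPM (592 to 1459 CPM in all), the 8 Purkinje markers to 4723 and 6907 CPM (431 the second highest of 12 on both lists) and the 6 granule cell markers to 2465 and 3331 CPM. Choroid plexus markers summed to 27.5 and 31.5 CPM (highest 1911 CPM), and 5 blood genes to 16.3 and 53.9 CPM (3.62 to 67.0 CPM), where 431 was the second highest. Their part in the levels of the targets was not tested. In bulk tissue a change in the share of a cell type and a change in RNA per cell cannot be told apart. The labels give no hour of collection or order of handling for single mice, so neither could be set beside these levels.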

How the data were processed

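RNA was sequenced from 12 cerebella, after ribosomal RNA depletion, as pairs of 100 bases from directional libraries, per the labels' protocols. The deposited values are raw read counts per gene, 1 table per library, unnormalized by the authors. STAR 2.7.10a, FastQC 0.11.9 and the builds GRCm39 and mm39 are named in the submitters' processing notes; the annotation release is not given in the sources used here. Counts on the strand opposite to the first read were used, since the other strand held 5.21% to 6.47% of gene reads. Unassigned reads (44.7% to 54.6%) and unmapped, multimapping and ambiguous reads stayed out of library sizes. Of 55401 identifiers, 55141 matched GENCODE M21 (GRCm38), the source of symbols and exon lengths.

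Tests used edgeR 4.0.16 in R 4.3.3: filterByExpr (19378 genes), TMM factors, 1 quasi-likelihood fit of all 12 libraries with 1 coefficient per group, two-sided, Benjamini-Hochberg adjustment over all genes tested, threshold 0.05. For log2 CPM the prior count was 2. An exact permutation test over the 70 splits of 8 libraries, which cannot go below 0.0286, was added for single genes. The labels do not say how the mice were allocated, and p-values measure the spread between these animals. The script was tested on simulated data. DESeq2 1.42.0, limma 3.58.1, RLE factors, no filter, unstranded counts, only the 2 groups compared, and leaving out libraries were alternatives. The members, lists and libraries left out were chosen with earlier results of these data known. Named beside the 9 genes were, from each list, the 2 genes with the smallest p in Het DMSO against WT DMSO and in Het Hit 2 against Het DMSO, Fkbp4, and the 2 nearest genes in pattern; others are marked as chosen after their values were seen.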

Additional observations from a re-analysis of the deposited data

Results flagged for a closer look

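Each group of 4 libraries was checked for 1 library far from the other 3, for the 9 genes and the 6 pathway genes named by the rule, 45 checks in all. A gap beyond Dixon's 95% critical value was found in 3, where chance alone gives about 2.25 (1 in 20).

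Zbtb16 in WT DMSO was 98.3 CPM in library 431, and the next library of the group, 426, held 35.2 CPM. Nr3c2 in WT DMSO was 71.4 CPM in library 426 against 69.2 CPM in the next, a small step within a very even group. Fkbp4 in Het DMSO was 259 CPM in library 409 and 149 CPM in the next, and 409 is the library with 0.0795% of its gene reads from mitochondria.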

How the results depend on the processing

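Of 540 alternative fits of the 27 differences of the 9 genes, over 20 settings, 0 passed the threshold, 485 kept their sign and 55 turned it. Members called were 0 in every setting. No paired analysis was possible because animal numbers do not recur between groups. Counts over all genes did change: in Het DMSO against WT DMSO 1 gene became 39 with DESeq2, 98 with limma's quality weights, 18 without 409 and 411, and 0 without 425 and 426 or with only the 2 groups fitted (0 to 9 leaving out single libraries, highest without 411). In Het Hit 2 against WT DMSO 1 became 24 with DESeq2, 221 with the weights, 90 without 409 and 411, 0 without 425 and 426, 54 with only the 2 groups, 4 with no filter and 2 unstranded (0 to 14, highest without 411). For the 3 groups 1 became 40, 151, 54 and 0 under the first 4 of these settings, 4 with no filter and 3 unstranded (1 to 11, highest without 411). Het Hit 2 against Het DMSO stayed at 0 in all settings. The cause was not tested.

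Signs turned under these settings, and the cause was not tested. For Het DMSO against WT DMSO, limma's weights gave Nr3c1 0.082, Pdk4 0.073, Sult1a1 0.023, Zbtb16 0.072, Fkbp4 -0.014 and Ncor1 0.0083; leaving out 409 and 411 gave Fkbp5 -0.20, Nr3c1 0.11 and Ncor1 0.025; leaving out 425 and 426 gave Fkbp5 -0.19 and Sgk1 -0.021. For Het Hit 2 against Het DMSO, the weights gave Errfi1 -0.031, Nr3c1 -0.13, Pdk4 -0.34 and Ncor1 -0.033, leaving out 409 and 411 gave Nr3c1 -0.17, Ncoa1 -0.020, Ncor1 -0.092 and Rhob 0.16, and unstranded counts gave Sult1a1 -0.0025. For Het Hit 2 against WT DMSO, the weights gave Sgk1 -0.024, leaving out 425 and 426 gave Nr3c1 0.036, Sgk1 -0.095 and Sult1a1 -0.13, and unstranded counts gave Sult1a1 -0.10.

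Leaving out single libraries turned the sign of 20 of the 27. In Het DMSO against WT DMSO the ranges were -0.22 to 0.59 for Fkbp5, -0.29 to 0.14 for Pdk4, -0.63 to 0.17 for Sult1a1, -0.43 to 0.022 for Tsc22d3, -0.45 to 0.38 for Zbtb16 and -0.047 to 0.37 for Fkbp4. In Het Hit 2 against Het DMSO they were -0.033 to 0.24 for Errfi1, -0.18 to 1.08 for Fkbp5, -0.023 to 0.24 for Nr3c1, -0.17 to 0.26 for Pdk4, -0.23 to 0.0098 for Sgk1, -0.21 to 0.28 for Tsc22d3 and -0.17 to 1.11 for Zbtb16. In Het Hit 2 against WT DMSO they were -0.22 to 0.049 for Errfi1, -0.076 to 1.37 for Fkbp5, -0.092 to 0.025 for Nr3c1, -0.23 to 0.20 for Pdk4, -0.11 to 0.11 for Sgk1, -0.12 to 0.60 for Sult1a1, -0.51 to 0.16 for Tsc22d3 and -0.39 to 1.20 for Zbtb16.

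Ranks, and counts of estimates above or below 0, were recomputed under settings chosen after seeing the data. Library 430 was among the 2 highest for 19 of the 22 other targets with RLE-type factors, 21 with no scaling factors and 21 without 409 and 411, where the share of all genes was 11.8%, 16.0% and 23.6% (12.4% as reported). The pair 430 and 431 took both top places for 7, 10 and 11, beside 2.95%, 3.89% and 4.68% of all genes (3.06% as reported). Pdk4 and Sult1a1, at 87 and 58 reads in their lowest libraries, are the least precisely counted of the 9.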
